A study of Rattus norvegicus with 12 samples.

Results

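The 10 genes described here encode the FOS and JUN subunits of the transcription factor AP-1 (Fos, Fosb, Fosl1, Fosl2, Jun, Junb and Jund), the related factor Atf3, the zinc finger factor Egr1 and the early response protein Ier3. They were matched by gene name on the array. They are represented by 15 of the 29775 probes kept, and make up 10 of the 22718 genes tested. The samples were bone from the calvaria, the skull roof, of rats aged 10 weeks, taken 72 h after surgery, and each of the 12 samples was hybridised to 1 single-colour array. In the laser group (4 arrays) a defect of 8 by 3 mm was cut with an Er:YAG laser at an output of 127 mJ per pulse and 20 Hz. In the bur group (4 arrays) a defect of the same size was drilled with a bur. In the control group (4 arrays) the periosteum was taken off and the bone was not ablated, although the series' own description calls these bones non-treated. Strain and sex are not given in the sources used here. The labels number the arrays 1 to 4 in each group and do not say whether each came from a separate animal, so a p-value here reflects no more than the scatter among these arrays.

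AP-1 is a pair of basic leucine zipper proteins, usually a FOS with a JUN protein, that binds DNA and switches genes on or off. Growth factors, cytokines, wounding and mechanical load induce Fos, Egr1 and the other immediate early genes within minutes, through MAP kinases and the serum response factor, without new protein synthesis. In bone, FOS is needed for osteoclasts to form, FRA1 (from Fosl1) and FRA2 (from Fosl2) act in osteoblasts and matrix production, and JUNB acts in both lineages. A sample taken days after surgery does not show the first wave of induction.

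The stretches of 250 bases upstream of Fosl1, Junb and Jund are shown because these AP-1 genes carry letters of the cyclic AMP response element, which CREB and ATF proteins bind. They are from RefSeq, build GRCr8, 5' to 3' on the strand of the gene: Fosl1 from chr1:212183635-212183884 (plus strand), Junb from chr19:40080876-40081125 (plus strand) and Jund from chr16:18769772-18770021 (minus strand). Capitals mark the matches to the motifs named after the sequences.
Fosl1: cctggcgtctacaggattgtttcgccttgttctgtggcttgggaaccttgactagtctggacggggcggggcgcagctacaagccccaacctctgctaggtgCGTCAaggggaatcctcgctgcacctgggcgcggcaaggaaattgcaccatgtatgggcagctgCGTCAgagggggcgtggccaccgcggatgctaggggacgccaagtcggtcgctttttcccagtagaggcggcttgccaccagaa
Junb: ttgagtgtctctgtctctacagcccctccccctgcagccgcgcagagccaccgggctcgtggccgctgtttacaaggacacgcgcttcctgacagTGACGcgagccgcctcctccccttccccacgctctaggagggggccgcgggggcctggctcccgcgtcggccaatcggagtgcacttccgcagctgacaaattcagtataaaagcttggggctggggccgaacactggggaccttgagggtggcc
Jund: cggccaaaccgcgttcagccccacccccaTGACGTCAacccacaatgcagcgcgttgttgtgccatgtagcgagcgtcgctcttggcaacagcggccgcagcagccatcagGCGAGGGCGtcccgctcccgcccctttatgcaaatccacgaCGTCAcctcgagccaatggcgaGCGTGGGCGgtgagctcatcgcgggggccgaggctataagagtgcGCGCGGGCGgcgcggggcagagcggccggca
The promoter table held 6 of the 10 genes: Fosb, Fosl1, Fosl2, Junb, Jund and Egr1. Fos, Jun, Atf3 and Ier3 were not matched. Each window of 300 bases (250 before and 50 after the start) was searched on both strands. The full response element TGACGTCA occurred in Jund only, from base -221 to -214 counted back from the start, and in 1.83% of 33469 promoters. Its core TGACG, which lies inside the full element on both strands, occurred in Fosl1, Junb, Jund and Egr1, and in 21.2% of all promoters. The AP-1 site TGANTCA was found in none of the 6 windows and in 7.33% of all promoters. The EGR site GCGNGGGCG occurred in Jund (3 matches) and Fosl2 (2 matches), and in 4.98% of promoters. The CArG box bound by the serum response factor occurred in Egr1 (2 matches), and in 1.64%. These matches describe letters and show no binding.

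Between 58.1% and 67.0% of the probes were well above background on an array, and no spot was saturated. Values are log2 of the scanner's processed signal minus the array's 75th percentile, so that 0 is a bright probe and the level of one gene's probe cannot be set against another's. All controls were on 1 slide and 1 scan and all ablated samples on another, so slide, scan and ablation cannot be told apart. In bulk tissue, fewer cells of a type and less RNA per cell cannot be told apart either. The 11 bone cell markers looked at, among them Bglap, Col1a1 and Dmp1, were all measured. A marrow score (the mean of erythroid, neutrophil and B cell markers, centred over the arrays) was highest on controls 4 and 1, at 2.09 and 1.38. It was 0.87 on control 2 and 0.12 on control 3. It ran from -1.28 to 0.09 in the bur group and from -1.01 to 0.16 in the laser group, so control 2 also lay above all ablated arrays. Of the 11 erythroid markers measured of 12 listed, 11 fell after laser and 10 after bur ablation. Of the 10 neutrophil markers measured 4 and 3 fell, and of the 8 B cell markers 3 and 4. Of all genes 13.0% were called lower after laser and 16.2% after bur. The mean score of skeletal muscle markers was highest on the array numbered 1 in each group, at 3.09 in control, 2.55 in bur and 0.90 in laser. The results are therefore also given without controls 1 and 4, and without the arrays numbered 1.

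Of the 10 genes, Fos and Junb rose after laser ablation, and Fos, Fosl1, Junb and Atf3 rose after bur drilling, while Egr1 fell after bur drilling. None of the 10 was called between laser and bur. Fos was 3.66-fold higher after laser (95% interval 1.76 to 7.59) and 5.02-fold higher after bur drilling (2.42 to 10.4). The tests are limma's moderated test over all 12 arrays, two-sided, with Benjamini-Hochberg adjustment over the 22718 genes, and a gene was called at an adjusted p under 0.05.

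After laser ablation 2 of the 10 genes were called higher and 0 lower, where 9.26% of all genes tested were called higher and 13.0% lower. Groups did not overlap for 2 of the 10, both higher, against 8.87% of all genes that were higher and 10.1% that were lower. Over all genes 2103 were called higher and 2958 lower after laser, against 1187 and 2438 with normexp background correction and the same scaling and 2902 and 2979 with normexp and quantile normalisation. After bur drilling 4 were called higher and 1 lower, against 9.99% and 16.2% of all genes. Groups did not overlap for 3 that were higher and 1 that was lower, against 9.60% and 15.7%. The median log2 difference over the 10 genes was 0.71 after laser and 0.84 after bur, where the median over all genes was 0.02 and under 0.01 in size. Over all genes 2270 were called higher and 3678 lower after bur, against 1646 and 6306 with normexp background correction and the same scaling and 3293 and 3357 with normexp and quantile normalisation.

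**Figure D1:**
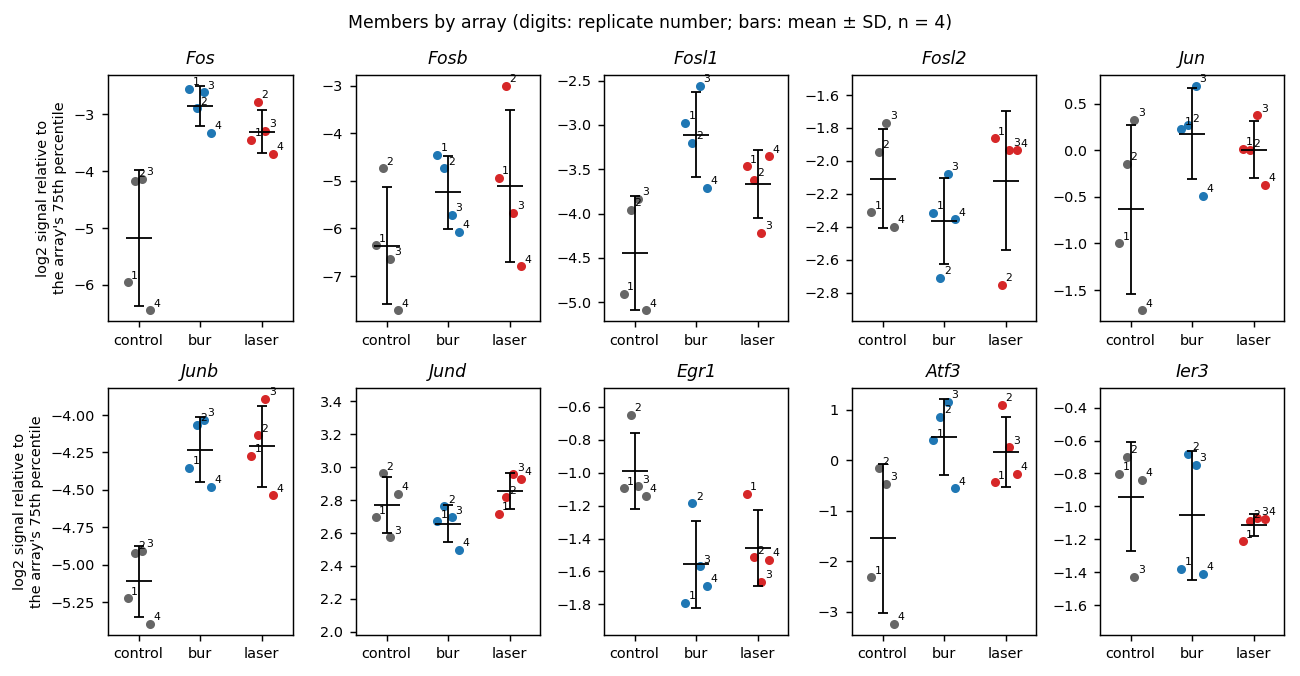
Each panel plots 1 gene by array, with the log2 signal relative to the array's 75th percentile on the vertical axis and the group on the horizontal axis; points are arrays labelled with their replicate number, and bars are the group mean ± SD (n = 4). Fos and Junb are higher on all 8 ablated arrays than on all 4 controls, and controls 4 and 1 are the lowest controls for 7 of the 10 genes.

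Fos, the founding FOS subunit, measured at chr6:109561941-109562000 (build rn4 in the array file), had relative log2 levels of -5.95, -4.17, -4.13 and -6.44 on controls 1 to 4. After bur drilling they were -2.55, -2.89, -2.61 and -3.32, and after laser ablation -3.45, -2.78, -3.29 and -3.69. All ablated arrays lay above all controls, and controls 1 and 4 lay far below the other two. The group means were -5.17 ± 1.20 in controls, -2.85 ± 0.35 after bur and -3.30 ± 0.38 after laser (SD, n = 4). The log2 difference was 1.87 after laser (SE 0.48, limma adjusted p = 0.0239) and 2.33 after bur (SE 0.48, limma adjusted p = 0.00893). The laser call was lost without control 1, control 4, laser 2 or laser 3 (limma adjusted p 0.0720, 0.0544, 0.0679 and 0.0596), while the bur call held with each array left out in turn. The difference was smaller with normexp background correction and the same scaling, at 0.64 after laser and 0.84 after bur, both still called.

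Fosb encodes a FOS protein best known from neurons and bone. Its probe was well above background on 2 of 4 control, 4 of 4 bur and 3 of 4 laser arrays. Its levels were -6.36, -4.74, -6.63 and -7.72 in controls, -4.45, -4.74, -5.71 and -6.07 after bur, and -4.94, -3.00, -5.68 and -6.80 after laser. The groups overlapped, with control 2 above most ablated arrays. The log2 difference was 1.26 after laser (SE 0.78, limma adjusted p = 0.255) and 1.12 after bur (SE 0.78, limma adjusted p = 0.301).

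Fosl1, which encodes FRA1, was measured at chr1:208099035-208099094 (rn4). Its levels were -4.91, -3.96, -3.83 and -5.09 in controls, -2.97, -3.20, -2.56 and -3.71 after bur, and -3.47, -3.62, -4.22 and -3.35 after laser. All bur arrays lay above all controls, whereas laser 3 lay below controls 2 and 3. Fosl1 rose by 1.34 on the log2 scale after bur (SE 0.33, limma adjusted p = 0.0168), or 2.53-fold. After laser the difference was 0.78 (SE 0.33, limma adjusted p = 0.106). The bur call was lost without control 1 (limma adjusted p = 0.0532), and the difference was 0.47 with normexp background correction and the same scaling, still called.

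Fosl2, which encodes FRA2, had 3 probes and none was called in any comparison. On its brightest probe the levels ran from -2.40 to -1.77 in controls, from -2.71 to -2.08 after bur and from -2.75 to -1.86 after laser. The log2 difference was -0.01 after laser (95% interval -0.51 to 0.49) and -0.26 after bur (-0.76 to 0.24). The sign was the other way on both dimmer probes, at 0.22 and 0.06 after laser and 0.27 and 0.10 after bur.

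Among the JUN genes, Jun, the main partner of FOS, had levels of -1.0, -0.14, 0.33 and -1.72 in controls, 0.23, 0.27, 0.69 and -0.49 after bur, and 0.02, 0.00, 0.38 and -0.37 after laser. Controls 2 and 3 lay within the range of the ablated arrays and controls 1 and 4 below it. The log2 difference was 0.64 after laser (SE 0.40, limma adjusted p = 0.254) and 0.81 after bur (SE 0.40, limma adjusted p = 0.148). A second Jun probe gave 0.81 and 1.02, neither called. In the authors' deposited table, which lists the second probe, Jun differed by 0.77 after laser (adjusted p = 0.0271) and 0.95 after bur (adjusted p = 0.0110).

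Junb, a JUN subunit that can oppose JUN on some genes, was measured at chr19:24832781-24832840 (rn4). Its levels were -5.22, -4.92, -4.91 and -5.39 in controls, -4.35, -4.07, -4.03 and -4.48 after bur, and -4.27, -4.14, -3.89 and -4.54 after laser. The 8 ablated arrays lay within 1 narrow band above all controls. Junb rose by 0.90 on the log2 scale after laser (SE 0.18, limma adjusted p = 0.0117) and by 0.88 after bur (SE 0.18, limma adjusted p = 0.00822), or 1.87-fold and 1.84-fold. Both calls held with each array left out in turn. With normexp background correction and the same scaling the differences were 0.29 and 0.12 and neither was called (limma adjusted p 0.109 and 0.391), while the median over all genes moved to -0.08 and -0.24.

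Jund, often the constitutive JUN subunit, had close values on its bright probe: 2.70, 2.96, 2.57 and 2.84 in controls, 2.67, 2.76, 2.70 and 2.50 after bur, and 2.72, 2.82, 2.96 and 2.93 after laser. The groups overlapped, and the log2 difference was 0.09 after laser (95% interval -0.18 to 0.36) and -0.11 after bur (-0.38 to 0.16). Its dimmer probe lay earlier in the transcript, from base 981 of one transcript record, against base 1618 of another for the bright probe. On that probe the levels were -3.61, -3.27, -2.82 and -3.38 in controls, -2.61, -2.92, -2.65 and -2.59 after bur, and -2.33, -2.80, -2.78 and -2.14 after laser. In a fit over all kept probes the dimmer probe rose by 0.76 on the log2 scale after laser (SE 0.20, limma adjusted p = 0.0276) and differed by 0.58 after bur (SE 0.20, limma adjusted p = 0.0562). The probes of Jund thus gave different calls after laser.

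Egr1, a zinc finger factor that growth signals induce, had levels of -1.09, -0.65, -1.08 and -1.14 in controls, -1.79, -1.19, -1.57 and -1.69 after bur, and -1.13, -1.51, -1.66 and -1.53 after laser. All bur arrays lay below all controls, by a small margin between bur 2 and control 4, and laser 1 lay among the controls. Egr1 fell by 0.57 on the log2 scale after bur (SE 0.18, limma adjusted p = 0.0368). After laser the difference was -0.47 (SE 0.18, limma adjusted p = 0.0754). A dimmer Egr1 probe gave differences of 0.23 and 0.24, of the opposite sign and not called, and with the mean of both probes the bur difference was -0.16 (limma adjusted p = 0.516). The bur call also failed without controls 1, 2 or 4 or without bur 1, 3 or 4 (limma adjusted p from 0.0522 to 0.0971).

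Atf3, a stress-induced factor of the ATF family that pairs with JUN proteins, was measured at chr13:107191582-107191614 (rn4). Its levels were -2.32, -0.15, -0.47 and -3.24 in controls, 0.39, 0.86, 1.16 and -0.56 after bur, and -0.44, 1.11, 0.26 and -0.27 after laser. Controls 2 and 3 overlapped the lowest ablated arrays, and controls 1 and 4 lay far below. Atf3 rose by 2.01 on the log2 scale after bur (SE 0.65, limma adjusted p = 0.0425), or 4.03-fold (95% interval 1.49 to 10.9). After laser the difference was 1.71 (SE 0.65, limma adjusted p = 0.0781). The bur call failed in 7 of the 12 fits that left out 1 array, those without control 1, control 4, bur 1, bur 2, bur 3, laser 3 or laser 4 (limma adjusted p from 0.0531 to 0.114).

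Ier3 is an early response gene linked to cell survival. Its levels ran from -1.43 to -0.70 in controls, from -1.41 to -0.68 after bur and from -1.21 to -1.07 after laser. The log2 difference was -0.17 after laser (95% interval -0.63 to 0.28) and -0.11 after bur (-0.57 to 0.34).

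**Figure D2:**
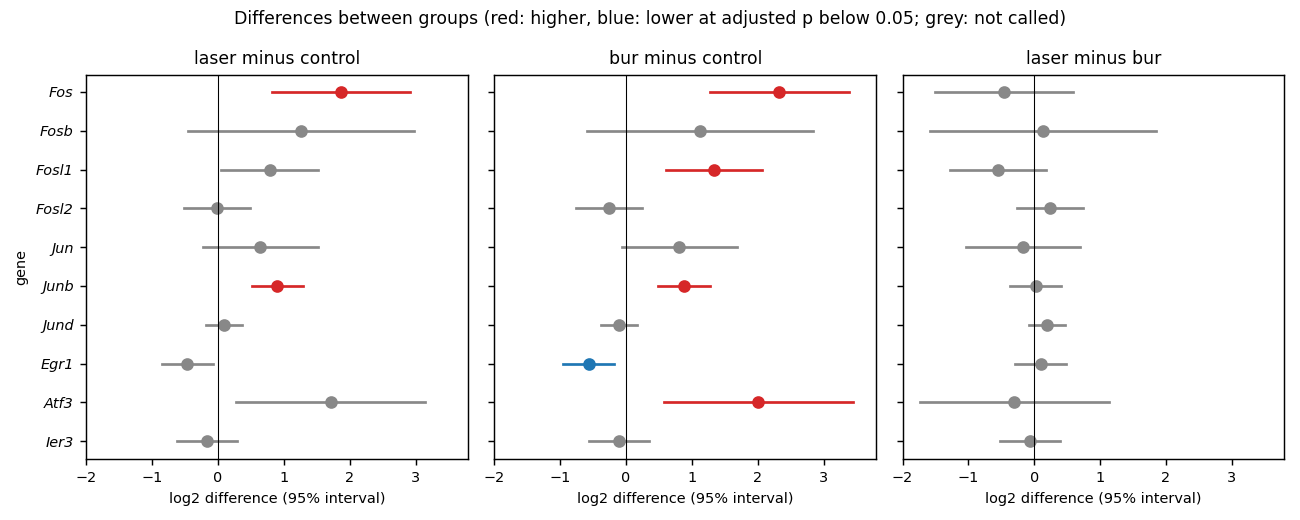
The log2 difference between group means (horizontal axis) is plotted for each gene (vertical axis) with its 95% interval, in 3 panels for laser minus control, bur minus control and laser minus bur. Red marks genes called higher and blue genes called lower; Fos and Junb are red in both comparisons with control, and all 10 genes are grey in laser minus bur.

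Both comparisons share the 4 controls, so their likeness is no independent evidence. In a single contrast of all 8 ablated arrays against the controls, Fos (log2 difference 2.10, limma adjusted p = 0.00521), Junb (0.89, limma adjusted p = 0.00321), Fosl1 (1.06, limma adjusted p = 0.0170) and Atf3 (1.86, limma adjusted p = 0.0266) rose, and Egr1 fell by 0.52 (limma adjusted p = 0.0238). In that contrast 15.1% of all genes were called higher (3433) and 19.4% lower (4405), against 1997 and 4997 genes with normexp background correction and the same scaling.

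The replicate numbers were taken to pair laser with control arrays by the correlation check given with the processing. That check does not by itself establish pairing. With that number added to the fit as a replicate block, 4 of the 10 genes rose after laser: Fos (limma adjusted p = 0.0130), Junb (0.00452), Atf3 (0.0150) and Fosb (0.0378). Over all genes 2455 were then called higher and 3316 lower. Atf3 and Fosb were not called without the block, and with the number as a random block Fosb was not called either (limma adjusted p = 0.184) while Atf3 was (0.0462).

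The direct comparison of laser with bur asks whether the way the defect was made altered these genes at 72 h. All bur arrays lay in column 1 and all laser arrays in column 2 of the same slide. Slide column and the way the defect was made therefore cannot be told apart. None of the 10 was called by limma, as none of the 22718 genes was (percentage called 0), and at an unadjusted p under 0.05 there were 0 of the 10 against 574 genes, or 2.53%, in all. The log2 differences, laser minus bur, ran from -0.56 for Fosl1 (95% interval -1.29 to 0.17) to 0.24 for Fosl2 (-0.26 to 0.74). For Junb the difference was 0.02 (-0.37 to 0.41) and for Egr1 0.10 (-0.29 to 0.49). For Fos it was -0.46 (-1.51 to 0.60), for Atf3 -0.30 (-1.73 to 1.13) and for Fosb 0.14 (-1.58 to 1.85). The difference for Jun was -0.17 (-1.04 to 0.70). The intervals of Fos, Fosb, Fosl1, Jun and Atf3 reach past a halving, and those of Fosb and Atf3 also past a doubling. No likeness of laser and bur is shown for these genes. Replicate numbers were also taken to pair laser with bur arrays, and with the block no gene of the 10 was called either.

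The spread among controls was larger than after ablation for most of the genes. Its SD exceeded that of the bur group for 8 of the 10 genes and that of the laser group for 7. Control 4 was the lowest control for 8 genes, and controls 4 and 1 were the lowest pair for 7 (Fos, Fosl1, Fosl2, Jun, Junb, Egr1 and Atf3). These are the arrays with the highest marrow score. With both left out, a choice made after seeing the data that leaves 2 controls, the log2 difference of Fos was 0.85 after laser (limma adjusted p = 0.160) and 1.30 after bur (limma adjusted p = 0.0456, the one call left). Junb differed by 0.70 and 0.68 (limma adjusted p 0.130 and 0.0921), and Atf3 by 0.48 and 0.78 (0.633 and 0.379). Fosl1 differed by 0.79 after bur (0.175) and Egr1 by -0.69 (0.109), so the size for Egr1 was no smaller without these arrays.

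**Figure D3:**
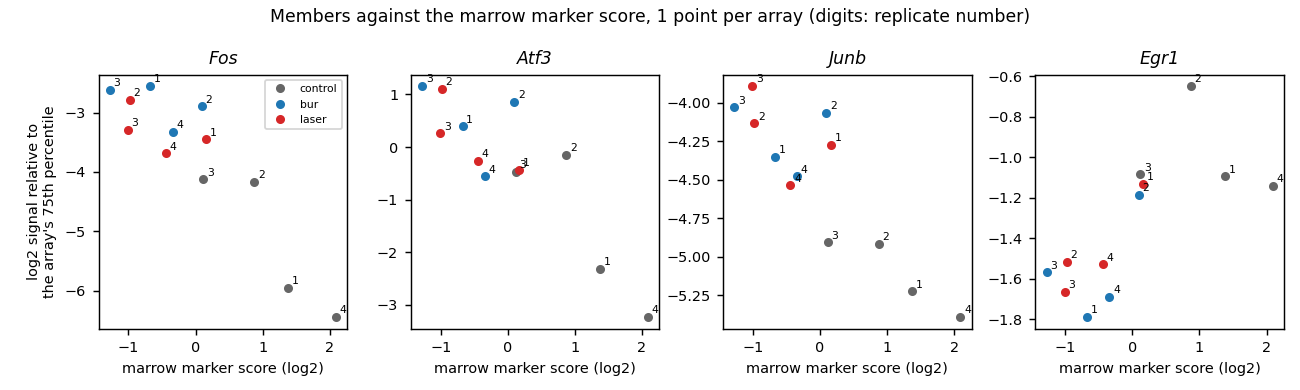
The log2 signal of Fos, Atf3, Junb and Egr1 (vertical axis, relative to the array's 75th percentile) is plotted against the marrow marker score (horizontal axis, log2), with 1 point for each of the 12 arrays, coloured by group and labelled with the replicate number. Controls 1 and 4, with scores of 1.38 and 2.09, hold the lowest values of Fos, Atf3 and Junb.

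With the marrow score as a covariate, also added after seeing the data, none of the 10 genes was called by limma in either comparison with control, and 2 genes in all were called after laser and 0 after bur. The differences were then 0.42 and 0.89 for Fos, 0.53 and 0.51 for Junb, and -0.24 and 0.08 for Atf3 after laser and bur. The score differs between the groups, so this fit cannot separate ablation from marrow content. Without the arrays numbered 1, on which muscle markers were high, Fos differed by 1.66 and 1.97 (limma adjusted p 0.107 and 0.0813) and Junb by 0.88 in both (0.0577 and 0.0635), and none of the 10 was called in either comparison. The mean score of macrophage markers moved the same way as Fos: it ran from -0.94 to -0.20 in controls, from -0.13 to 0.73 after bur and from 0.03 to 0.55 after laser. Cd163 (-0.73 after laser and -0.76 after bur) and Lyz2 (-0.13 and -0.19) went the other way and were not called. Of the 12 macrophage and monocyte markers, 3 rose after laser and 5 after bur, against 9.26% and 9.99% of all genes. The fibroblast score, from 7 markers, was lowest on controls 4 and 1, at -1.45 and -1.17. It was -0.53 on control 2 and 0.54 on control 3. After bur it ran from -0.32 to 1.03 and after laser from 0.13 to 0.69, so control 3 lay within both ranges. Of the 7 markers 1 rose in each comparison, against 9.26% and 9.99% of all genes. Of the 11 osteoblast and osteocyte markers 6 rose after laser and 1 after bur. Of the 8 mast cell markers 8 and 7 fell, and of the 5 adipocyte markers measured 4 fell in each comparison, against 13.0% and 16.2% of all genes. The part of any of these cell types in the changes of the AP-1 genes was not tested beyond these fits.

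**Figure D4:**
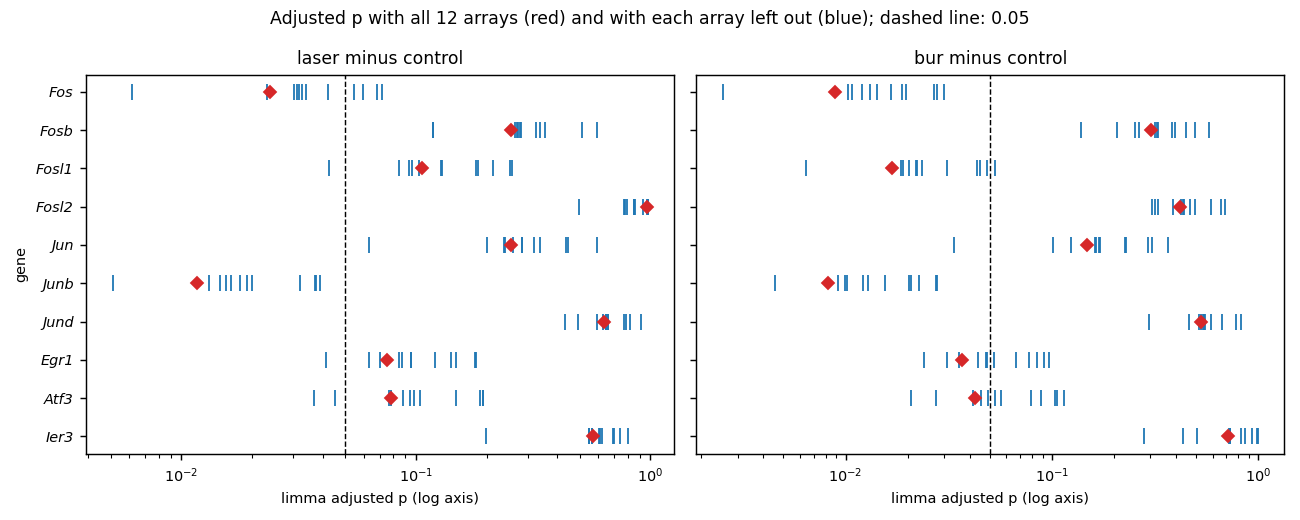
The limma adjusted p (horizontal axis, log scale) of each gene (vertical axis) is shown with all 12 arrays (red diamonds) and with each array left out in turn (blue ticks), for both comparisons with control; the dashed line marks 0.05. All ticks of Junb lie left of the line in both panels, and those of Atf3 and Egr1 lie on both sides of it after bur drilling.

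In the authors' deposited table, whose differences match those of the deposited quantile-normalised values, Fos differed by 1.16 after laser (adjusted p = 0.00377) and 1.50 after bur (adjusted p = 0.000935). In the same authors' deposited table Atf3 differed by 1.51 after laser (adjusted p = 0.00759) and 1.83 after bur (adjusted p = 0.00307). Junb differed there by 0.67 and 0.69 in the authors' deposited table (adjusted p = 0.00470 and 0.00302). The dimmer Jund probe differed by 0.67 after laser in the authors' deposited table (adjusted p = 0.0107) and the bright one by 0.10 (adjusted p = 0.545). After bur the dimmer one differed there by 0.55 (adjusted p = 0.0196) and the bright one by -0.12 (adjusted p = 0.422). On the probes that stand for them here, the genes called had the same signs in that table. The dimmer Egr1 probe had the opposite sign there, at 0.24 after bur (adjusted p = 0.152), against -0.48 on the bright one (adjusted p = 0.0252). Of the 23269 lines in that table, 6986 after laser and 7633 after bur had an adjusted p under 0.05.

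The partners, relatives, upstream kinases and targets of AP-1 were described from lists of textbook genes. Of 22 other bZIP proteins, 21 were measured, and 2 rose and 2 fell after laser, and 3 rose and 2 fell after bur (medians 0.02 and 0.08). Maff, a small MAF protein, rose by 0.98 and 0.89, and Batf, a partner of JUN proteins in immune cells, by 0.67 and 0.84. The small MAF proteins Mafg and Mafk fell, Mafg by 1.1 after laser and 1.18 after bur, and Mafk by 1.06 and 1.04. Crem, a cyclic AMP response factor, rose by 0.46 after bur. Counts of this list lay near those of all genes, of which 22.3% were called in either direction after laser and 26.2% after bur.

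Of 43 other immediate early genes, 41 were measured. After laser 9 rose and 3 fell, and after bur 13 rose and 3 fell, with medians of 0.43 and 0.46. The shares of all genes were 9.26% higher and 13.0% lower after laser and 9.99% and 16.2% after bur. Phlda1 cleared background on 0 of 4 controls (mean -8.20), 4 of 4 bur and 3 of 4 laser arrays. It passed the detection filter only through ablated arrays, so its p-values are not given and its rise has only a lower bound. The counts above include it. It was at least 2.16-fold higher after bur (mean -6.00). The same figure after laser was 2.86-fold (mean -5.60), but that mean holds an array not well above background, so it is no strict bound. Such a bound sets the mean of the ablated arrays against, on each control array, the lowest signal well above background or the probe's own signal if higher. Dusp4 also passed the filter only through ablated arrays, clearing background on 0 of 4 controls, 4 of 4 bur and 3 of 4 laser arrays. Its p-values are not given, and the 13 that rose after bur include it. Dusp4 was at least 1.81-fold higher after bur. Nr4a3, an orphan nuclear receptor, rose by 1.77 and 2.12, and its probe cleared background on 1 of 4 controls and on all ablated arrays. Sgk1, a serum-induced kinase, rose by 1.27 and 1.35. Genes of the same class fell: Btg2, an antiproliferative gene, by 1.15 and 1.26, and Zfp36, which destabilises cytokine mRNAs, by 0.80 and 0.98. Nr4a1 fell by 0.76 after bur. The list thus held genes called in both directions.

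Of the 33 MAP kinase and serum response factor genes, all were measured. After laser 5 rose and 5 fell, and after bur 5 rose and 8 fell (medians 0.08 and 0.15). In either direction that is 30.3% and 39.4% of the list, against 22.3% and 26.2% of all genes. Mapk10, the JNK kinase best known from neurons, cleared background on 0 of 4 control, 4 of 4 bur and 2 of 4 laser arrays. It too passed the detection filter only through ablated arrays, so its p-values are not given, and the counts above include it. It was at least 1.76-fold higher after bur. The figure after laser was 1.32-fold, which is no strict bound, since laser arrays that did not clear background enter it. The means were -8.39 in controls, -6.84 after laser and -6.42 after bur. Map3k14, a kinase of the NF-kB pathway, rose by 0.91 and 1.06, and its probe cleared background on 3 of 4 controls and on all ablated arrays. The p38 kinase Mapk14 fell by 0.74 and 0.77, and its activator Map2k3 by 0.78 and 0.77. Mapk3, which encodes ERK1, fell by 0.58 and 0.86, and Srf, the serum response factor itself, fell by 0.61 after bur.

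Of 25 textbook AP-1 targets, 23 were measured, and 12 rose and 0 fell after laser and 14 rose and 0 fell after bur. The medians were 1.04 and 1.20, against 0.02 and under 0.01 in size over all genes, of which 9.26% and 9.99% rose. Mmp12, the macrophage metalloelastase, rose by 3.03 and 3.73, and Ccl2, a chemokine for monocytes, by 2.55 and 3.23. Il11, a cytokine that acts on osteoclasts and osteoblasts, rose by 2.90 after laser (SE 0.53, limma adjusted p = 0.00855) and differed by 1.53 after bur (limma adjusted p = 0.0518), and its probe cleared background on 2 of 4 controls and on all ablated arrays. Plau, which encodes the protease urokinase, rose by 2.04 after laser and by 1.87 after bur. Mmp12 and Ccl2 are also made by macrophages, whose mean marker score moved in the same direction though not every marker did. Spp1 and Ibsp of this list are also counted among the osteoblast and osteocyte markers. Whether AP-1 acted on any of these genes was not tested.

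**Figure D5:**
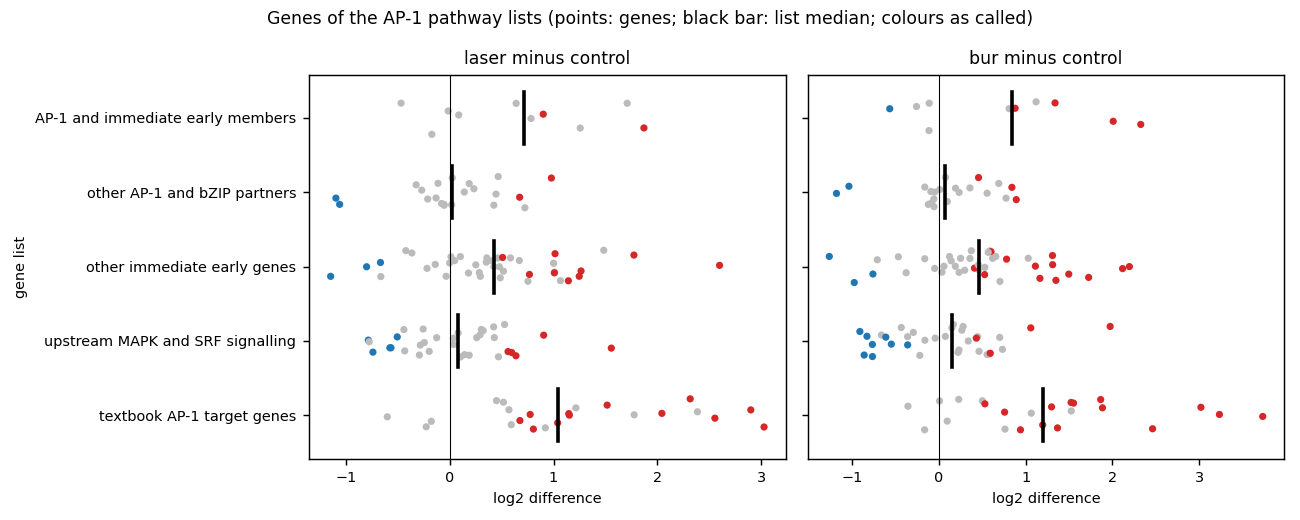
Log2 differences (horizontal axis) of the 10 AP-1 and immediate early genes and of the genes in the 4 lists (vertical axis) are plotted for laser minus control and bur minus control; points are genes, red called higher, blue called lower and grey not called, and black bars are medians. The medians of the AP-1 targets, 1.04 and 1.20, lie to the right of those of the bZIP partners, 0.02 and 0.08.

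The genes whose values over the 12 arrays were most like each member differed between members. For Fos they were Capn2, a calpain protease (Pearson r 0.993), and Anxa4, an annexin (0.992). For Atf3 they were C3ar1, the receptor of complement C3a on myeloid cells (0.994), and Lilrb4 (0.984). For Fosl1 they were Lgals3, which encodes galectin-3 of macrophages (0.935), and Dscr3 (0.933), followed by Ccl2 (0.926). For Junb the nearest was Phc2 (0.969) and for Egr1 Ptprq (0.927). These values describe 12 arrays that share controls, slides and groups, and carry no test.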

How the data were processed

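RNA from 12 bone samples (4 control, 4 bur, 4 laser; grouped by title) was labelled with Cy3 from 200 ng and hybridised to 1 Agilent array each. Spot intensity values (processed signal, with background-subtracted and mean signals) are in the authors' deposited scanner files, written by Agilent Feature Extraction 11.0.1.1 per the submitters' processing notes; probe positions are rn4 per the file headers. The authors also deposited a log2 table, quantile-normalised by its title, and tables of log2 differences with p-values. The steps that filtered and fitted those tables are not given in the sources used here.

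Each array has 62976 spots, 58717 of them not controls, for 45598 probes. Here log2 processed signal was set to each array's 75th percentile and spots of a probe averaged. Probes well above background on at least 4 arrays were kept (29775), and the brightest stood for its gene. Fits used limma 3.58.1 in R 4.3.3, with 3 group means over the 12 arrays. In a test on simulated data for laser minus control, over 22718 genes, 45% of genes changed by log2 1 and 88% of those changed by 2 were recovered. The number of arrays limits the precision. All 10 members were named; from each list, genes past the threshold with the largest changes; and for each member the genes most correlated with it. The members and lists were chosen with earlier results of these data known, and the core of the response element was added to the motifs after the first search. No column was left without a sample.

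Same-numbered deviations from group means correlated at 0.34, 0.18, 0.22 and 0.13 between control and laser. Between bur and laser they correlated at 0.25, 0.24, 0.16 and 0.34. All were over 0.1, so the numbers were taken to pair these groups. This cutoff does not by itself mark pairing, since differently numbered arrays reached 0.12 and 0.14 in these comparisons. Same-numbered arrays also shared a slide row, so a shared source and a shared position cannot be told apart. The labels do not say what the numbers mark. Between control and bur the same-numbered values were 0.28, -0.05, 0.28 and 0.08, and differently numbered arrays reached 0.32. Those groups were not taken as paired. Alternatives covered background correction, scaling, the deposited values, probe filters, probe averaging, the samples in the fit, array weights, replicate blocks and each array left out. A marrow covariate, the arrays with the highest marrow or muscle scores left out and each probe on its own were added after seeing the data.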

Additional observations from a re-analysis of the deposited data

Results flagged for a closer look

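In 3 of the 45 groups of 4 arrays examined (15 probes in 3 groups), 1 array lay far from the others, measured by its gap to the nearest other array as a share of the group's range. Chance flags about 1 in 20 groups. Ier3 was lower on laser array 1, at -1.21, where the other laser arrays lay between -1.09 and -1.07. The brightest Fosl2 probe was lower on laser array 2, at -2.75, where the others lay between -1.94 and -1.86. Egr1 was higher on control array 2, at -0.65, where the other controls lay between -1.14 and -1.08.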

How the results depend on the processing

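In the comparison of laser with control, the 2 genes called higher were 1 with normexp correction and the 75th percentile, 1 with only both groups in the fit (1758 genes called in all) and 0 with the marrow covariate (2 genes in all), and 1 gene, Egr1, was called lower with array weights. Without a detection filter 3172 genes were called, and 1 between laser and bur. In the bur comparison the 1 gene called lower became 0 with the percentile over detected probes, quantile normalisation, the mean of probes or only both groups, and with the mean of probes also for all ablated arrays. With normexp and the 75th percentile the 4 higher in all ablated arrays were 2. The marrow covariate left 0 higher and 0 lower with 0 genes in all after bur, and 0, 0 and 11 for all ablated arrays. Without controls 1 and 4 the counts higher, lower and in all were 0, 0 and 217 after laser, 1, 0 and 572 after bur, and 0, 0 and 736 for all ablated arrays. Without number 1 of each group they were 0, 0 and 1383, then 0, 0 and 1112, then 2, 0 and 3328. The cause of these changes was not tested; the last settings hold fewer arrays.

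The replicate block raised the laser count from 2 to 4 (Fos, Junb, Atf3, Fosb). In the bur comparison, not taken as paired, it gave 6 higher, with Jun (0.81, limma adjusted p = 0.0287) and Fosb (1.12, limma adjusted p = 0.0494) added, and 6 for all ablated arrays. Over all genes 2602 were then called higher and 3977 lower after bur, and 3694 and 4631 for all ablated arrays. With the number as a random block neither Jun nor Fosb was called after bur (Fosb limma adjusted p = 0.225). The replicate block changed no other call of the 10 genes.

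With 1 array left out at a time, genes called higher ran from 1 to 4 after laser, 2 to 5 after bur and 2 to 5 for all ablated arrays; genes called lower ran from 0 to 1 in each. Genes called in all ran from 1245 (without control 1) to 7994 (without control 3) after laser, from 2789 to 8397 after bur and from 4341 to 9710 for all ablated arrays, with the fewest without control 1 each time; leaving out control 4 or laser 2, 3 or 4 also lowered the laser count by over 1.5 times, and control 4, bur 1 or bur 3 the bur count.

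Sign changes among the settings run occurred for differences that were not called in the main fit, except Atf3 for all ablated arrays. Fosl2 after laser turned to 0.018 (normexp, quantile), 0.040 (percentile of detected probes), 0.0034 (quantile), 0.045 (deposited values) and 0.089 (mean of probes); after bur to 0.022 and 0.037 and for all ablated arrays to 0.034 and 0.063 (deposited values, mean of probes). Jund for all ablated arrays turned to 0.023, 0.049, 0.012 and 0.33 (normexp with quantile, detected probes, quantile, mean of probes), and after bur to 0.23 (mean of probes). With the mean of probes Jund was called higher for all ablated arrays (limma adjusted p = 0.0378). In that setting it was also called higher after laser, by 0.42 (limma adjusted p = 0.0374). Between laser and bur, Junb turned to -0.029 (quantile) and -0.019 (deposited values), and Fosb to -0.028 (array weights). Fosb after bur turned to -0.097 (normexp, 75th percentile). With the marrow covariate Jun turned to -0.58, -0.40 and -0.49 (laser, bur, all ablated), Ier3 to 0.019, 0.074 and 0.047, Atf3 to -0.24 after laser and -0.085 for all ablated arrays, and Jund to 0.022 for all ablated arrays. Without controls 1 and 4 Jun turned to -0.085 after laser and -0.00019 for all ablated arrays, and Ier3 to 0.0069 after bur; without number 1 of each group Ier3 turned to 0.040 after bur and Egr1 to -0.088 between laser and bur. With 1 array left out the ranges that crossed 0 were -0.11 to 0.20 (Fosl2, laser), -0.28 to 0.0046 (Ier3, bur), -0.077 to 0.053 (Jund, all ablated) and, between laser and bur, -0.56 to 0.70 (Fosb), -0.39 to 0.0022 (Jun), -0.084 to 0.13 (Junb), -0.011 to 0.22 (Egr1) and -0.18 to 0.067 (Ier3).

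The limits are 4 arrays a group, controls on their own slide, bur and laser arrays in separate slide columns, and controls that differ in marrow markers. Dim Fos, Fosb, Fosl1 and Junb probes are another limit, since their differences depend on the background correction.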
